A study of Brassica rapa and Brassica oleracea and Brassica napus with 3 samples.

Results

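DNA methylation of 1998 gene pairs was compared between the C subgenome of *B. napus* (Cn) and the C genome of *B. oleracea* (Co), gene by gene. Each pair is a row of the authors' list of homoeologous genes that names a Cn and a Co gene, and the first 1998 of its 14748 rows were used. They take in 1998 of 52557 Cn genes and 1998 of 58997 Co genes of the libraries. Both genes of the pair lie on C01 in 1381 pairs and on C02 in 608 pairs, and the other 9 pairs join other chromosomes. The values therefore describe C01 and part of C02 and not the whole subgenome.

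The Cn values came from 1 BS-seq library of *B. napus* ZS11, and the Co values from 1 BS-seq library of *B. oleracea* JZS. Both were made from young leaves of 14 d old seedlings grown hydroponically, with no treatment. *B. napus* is an allotetraploid that carries an A subgenome (An) and a C subgenome, and *B. oleracea* is a putative progenitor of Cn. JZS is a present-day line of that species and not the plant that gave rise to ZS11, so Co stands in for the ancestral state. Each list row also names the An gene of ZS11, and its level in the same *B. napus* library is given where it bears on a pair. Without a replicate in either species, the species, the library and the gene annotation cannot be told apart, and no test between Cn and Co was made.

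BS-seq reads methylation from bisulfite-treated DNA, in which an unmethylated cytosine ends up as a thymine in the read and a methylated one does not. In plants, methylation inside transcribed genes lies mostly at CG sites and is copied at each cell division by a maintenance methyltransferase. Methylation of transposons and repeats beside genes lies at CG and other sites, is guided in part by small RNAs and goes along with silencing of the repeat. Methylated gene bodies are commonly found in broadly expressed genes, while a methylated promoter can go along with low expression.

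The methylation level is the methylated fraction of cytosines, given here in percent, and the cytosine contexts were not separated. Each gene had 12 bins in the direction of transcription, namely 4 upstream of it, 4 along its body and 4 downstream. Region levels are means over the bins that hold a value, and a pair was used in a region if both genes had 2 or more such bins of the 4. Such levels were available for 1974 pairs upstream, 1982 in the gene body and 1975 downstream. The shift of a pair is its Cn level minus its Co level, in percentage points. A pair was called crossing up when its level was 15% or more in Cn and below 5% in Co, and crossing down when it was below 5% in Cn and 15% or more in Co. The number of reads behind a level is unknown, so a level of 0 can also come from few reads.

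Flanks had close average levels in Cn and Co, whereas gene bodies were lower in Cn. The mean upstream level was 9.59% in Cn and 9.78% in Co, and the median was 6.48% in Cn and 6.52% in Co. The mean downstream level was 7.42% in Cn and 7.71% in Co, with medians of 2.998% in Cn and 3.95% in Co. The mean gene body level was 1.93% in Cn and 2.80% in Co, and the median was 0.430% in Cn and 1.39% in Co. Cn was the lower gene in 62.7% of pairs in the gene body, against 53.5% upstream and 56.4% downstream. The gene body shift grew along the gene. In its 4 bins the mean level was 1.31, 2.04, 2.36 and 1.94% in Cn and 1.67, 2.82, 3.43 and 3.25% in Co. In the gene body, where levels were low, 49.7% of pairs were within 1 percentage point and 4.64% were more than 10 points apart. Flanks varied more, with 17.7% of pairs more than 10 points apart upstream and 15.2% downstream. Across pairs, Spearman's rho between Cn and Co levels was 0.65 upstream (n = 1974), 0.49 in the gene body (n = 1982) and 0.61 downstream (n = 1975), as a description over genes that share the same 2 libraries.

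**Figure D1:**
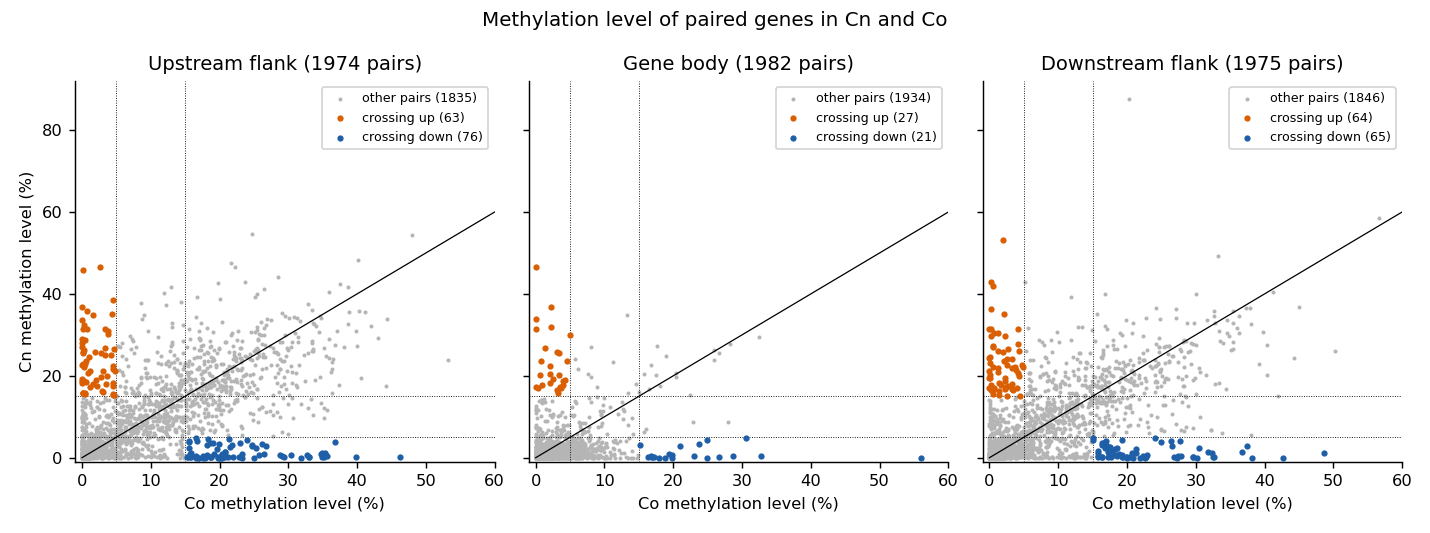
Methylation level of each pair in Cn (vertical axis, %) against Co (horizontal axis, %) in the upstream flank, gene body and downstream flank, with equal levels on the solid line and 5% and 15% on the dotted lines. Orange points are pairs crossing up and blue points are pairs crossing down, 63 and 76 upstream, 27 and 21 in the gene body, 64 and 65 downstream, and they lie along both axes away from the line.

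Sorted by the Co level, the shift differed between classes. The Co level is itself a term of the shift. Classes by Co therefore give lower Cn levels in high classes and higher ones in low classes even without change. Pairs without methylation in Co were mostly a little higher in Cn in the flanks. Pairs with a high level in Co were mostly lower in Cn. A pair at 0 in Co can only be equal or higher in Cn. In the gene body, 172 of the 326 pairs at 0 in Co were higher in Cn and 154 were equal. In the upstream flank, the median shift was 0.282 percentage points where Co was at 0 (99 pairs), −0.0165 where Co was up to 5% (780 pairs), −0.218 between 5% and 15% (551 pairs) and −3.84 above 15% (544 pairs). The highest class had a median of 18.1% in Cn and 21.5% in Co, and Cn was lower in 377 of its 544 pairs. The quartiles of its shift were −11.5 and 1.12 points, and the 95% order-statistic interval of the median ran from −4.94 to −3.07, which covers the spread over genes and not between plants. In the downstream flank, the median shift was 0.188 at 0 (84 pairs), −0.101 up to 5% (987 pairs), −0.918 between 5% and 15% (527 pairs) and −3.94 above 15% (377 pairs, interval −5.48 to −2.94).

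Above 15%, sorting by the Cn level turned the sign of the shift round in both flanks. Pairs above 15% in Cn had a median shift of 3.84 points upstream (543 pairs) and 4.002 points downstream (392 pairs), so that the gene on which a pair was classed as high was higher than its partner by a similar amount on either side. The highest class held nearly the same number of genes in the upstream flank, 543 in Cn and 544 in Co, and 346 pairs were in it on both sides. Downstream it held 392 genes in Cn and 377 in Co, with 223 pairs shared. Below 15% the classes were not mirror images. Upstream, the median shift between 5% and 15% was −0.224 sorted by Cn and −0.218 sorted by Co. Pairs up to 5% in Cn had a median shift of −0.546 with Cn lower in 65.5%, whereas pairs up to 5% in Co had −0.0165 with Cn lower in 50.9%. At higher levels the sign again turned with the genome used for sorting. Where the upstream level of Co was above 30%, the median was 24.0% in Cn and 34.6% in Co (92 pairs). Where the upstream level of Cn was above 30%, the median was 34.0% in Cn and 24.6% in Co (84 pairs).

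Gene bodies above 15% also turned round with the sorting, but the lower classes differed more between Cn and Co than in the flanks. The median gene body shift was 0.0455 points where Co was at 0 (326 pairs), −0.510 up to 5% (1307 pairs), −4.95 between 5% and 15% (309 pairs) and −16.2 above 15% (40 pairs). Cn was lower in 71.8% of the pairs up to 5% and in 88.0% of those between 5% and 15%. Of the 309 pairs at 5% to 15% in Co, 252 were below 5% in Cn, 46 stayed in the same class and 11 were above 15%. Their median level was 2.13% in Cn and 6.97% in Co. Sorted by Cn, the class from 5% to 15% held only 126 pairs, with a median shift of 3.41 points. It thus held less than the 309 genes of Co in that class, whereas the upstream flank had 528 genes in Cn and 551 in Co between 5% and 15%. At the top, the numbers went the other way, with 53 gene bodies above 15% in Cn and 40 in Co, of which 15 pairs were above 15% in both. The median shift was 14.0 points (interval 9.64 to 16.9) in the 53 pairs sorted by Cn, against −16.2 (interval −18.6 to −3.05) in the 40 sorted by Co.

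**Figure D2:**
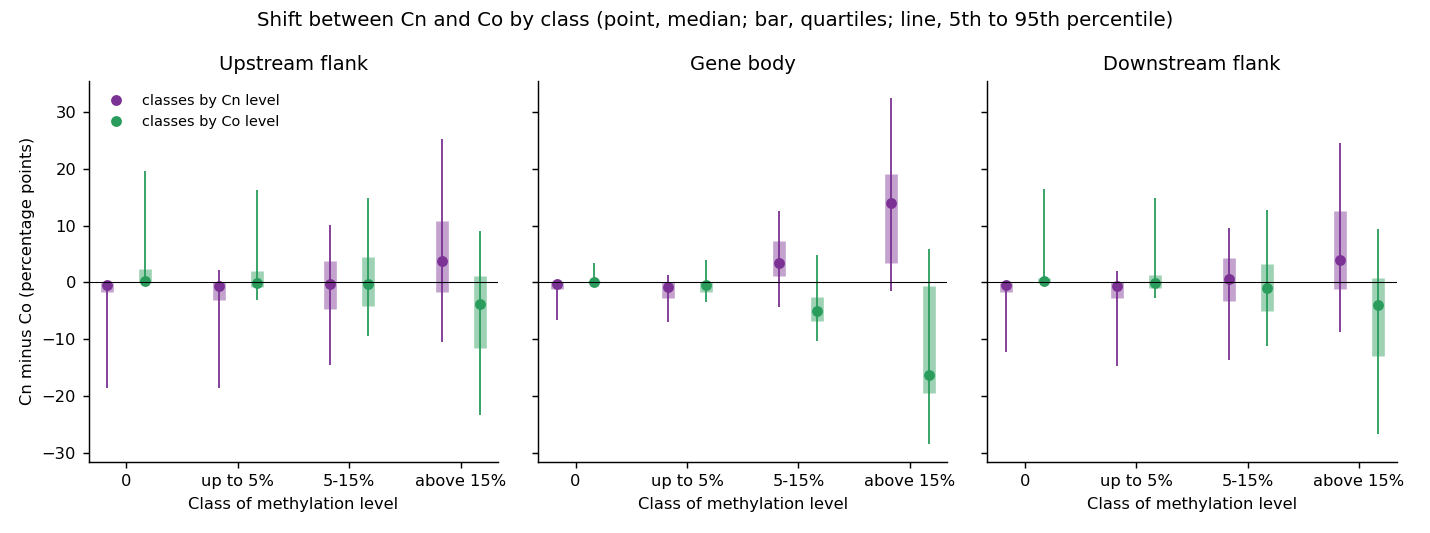
Shift of pairs (Cn minus Co, percentage points) in classes of methylation level, sorted by the Cn level (purple, left) and by the Co level (green, right). Points are medians, thick bars quartiles and thin lines the 5th to 95th percentile; in the class above 15% the medians are 3.84 and −3.84 upstream, 14.0 and −16.2 in the gene body, and 4.002 and −3.94 downstream.

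These medians depended on which bins set the class. With the class taken from the first bin and the shift from the last bin of a region, a choice made after the data were seen, the median shift of the class above 15% in Co was 0 upstream, −1.71 in the gene body and −0.696 downstream. With both libraries scaled to the same mean it was −2.66 upstream and −2.47 downstream, and −15.6 in the gene body.

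Crossing was rare and about equally frequent in both directions. In the upstream flank, 63 pairs crossed up, 3.19% of the pairs, and 76 crossed down, 3.85%. Downstream, 64 pairs crossed up, 3.24%, and 65 crossed down, 3.29%. In the gene body, 27 pairs crossed up, 1.36%, and 21 crossed down, 1.06%. The exact binomial 95% intervals of these shares cover sampling of genes only, for example 2.46% to 4.07% up and 3.05% to 4.80% down upstream. They treat pairs as independent, whereas some neighbouring pairs crossed together, so they do not compare the directions. Relative to the Co genes that could cross, the shares differed by direction, as did the numbers of such genes. Co had 879 genes below 5% and 544 at 15% or more upstream, 1071 and 377 downstream, and 1633 and 40 in the gene body. Of the genes below 5% in Co, 7.17% crossed up upstream, 5.98% downstream and 1.65% in the gene body. Of the genes at 15% or more in Co, 14.0% crossed down upstream and 17.2% downstream, whereas 52.5% (21 of 40) did so in the gene body. In reverse, of the genes at 15% or more in Cn, 11.6% were below 5% in Co upstream and 16.3% downstream. In the gene body it was 50.9% of 53. Of the pairs above 15% in Co, 37.5% were also above 15% in Cn in the gene body, against 63.6% upstream and 59.2% downstream. Over all pairs, Cn was at 15% or more in 53 of 1982 gene bodies, 543 of 1974 upstream flanks and 392 of 1975 downstream flanks. It was below 5% in 1803, 903 and 1137 of them in the same order. High Cn levels were thus rare and low ones common in gene bodies, so the shares by region are not directly comparable.

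The same count between Cn and An, taken within the *B. napus* library, gave 233 pairs with Cn at 15% or more and An below 5% upstream (11.8%) and 112 pairs the other way (5.68%). It gave 162 (8.25%) and 85 (4.33%) downstream, and 23 (1.17%) and 24 (1.22%) in the gene body. These counts share the Cn values with the counts above and are given side by side only.

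By region and direction, crossing pairs had medians of 19.8% to 22.8% on the high side and 0.301% to 2.18% on the low side. The limits that chose the pairs in part set these levels. The 63 pairs crossing up upstream had a median of 22.8% (15.3 to 46.5%) in Cn and 1.15% (0 to 4.85%) in Co. The 76 crossing down had a median of 0.606% (0 to 4.85%) in Cn and 20.8% (15.2 to 46.3%) in Co. In the gene body, medians were 20.2% in Cn and 2.18% in Co for pairs crossing up, and 0.301% in Cn and 19.8% in Co for pairs crossing down. Downstream they were 21.6% in Cn and 1.41% in Co for pairs crossing up, and 0.818% in Cn and 19.996% in Co for pairs crossing down. Some pairs stood close to the limit. Upstream, 10 of the 63 pairs crossing up were between 15% and 17% in Cn, and 17 further pairs below 5% in Co were just short of it, between 13% and 15% in Cn. With a limit of 20% in place of 15%, the counts were 40 up and 44 down upstream, 15 up and 10 down in the gene body, and 37 up and 32 down downstream.

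Outside the region that defined the crossing, mean levels in Cn and Co mostly lay close together. Pairs crossing up upstream had mean levels of 27.1, 31.2, 24.8 and 13.9% in the 4 upstream bins of Cn and 2.59, 1.35, 1.88 and 1.505% in those of Co, so the difference was smallest in the bin next to the gene. In the same pairs, the 4 gene body bins had means of 0.912 to 2.13% in Cn and 2.12 to 3.70% in Co, with the Cn mean below the Co mean in each. Pairs crossing down upstream mirrored this, with 2.49, 0.979, 0.832 and 0.814% in Cn and 24.0, 28.2, 27.7 and 12.9% in Co. Pairs crossing downstream had their largest difference away from the gene as well. In those crossing up, bin means from the gene end outward were 11.2, 25.2, 29.4 and 26.2% in Cn and 1.23, 1.17, 1.56 and 3.21% in Co. In gene bodies crossing up, the difference was largest in the middle bins, with 19.3, 26.0, 27.8 and 19.1% in Cn and 1.89, 2.64, 2.08 and 2.60% in Co. Farthest upstream the means were 13.4% in Cn and 12.1% in Co, and in the upstream bin next to the gene they were 12.6% in Cn and 6.05% in Co.

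**Figure D3:**
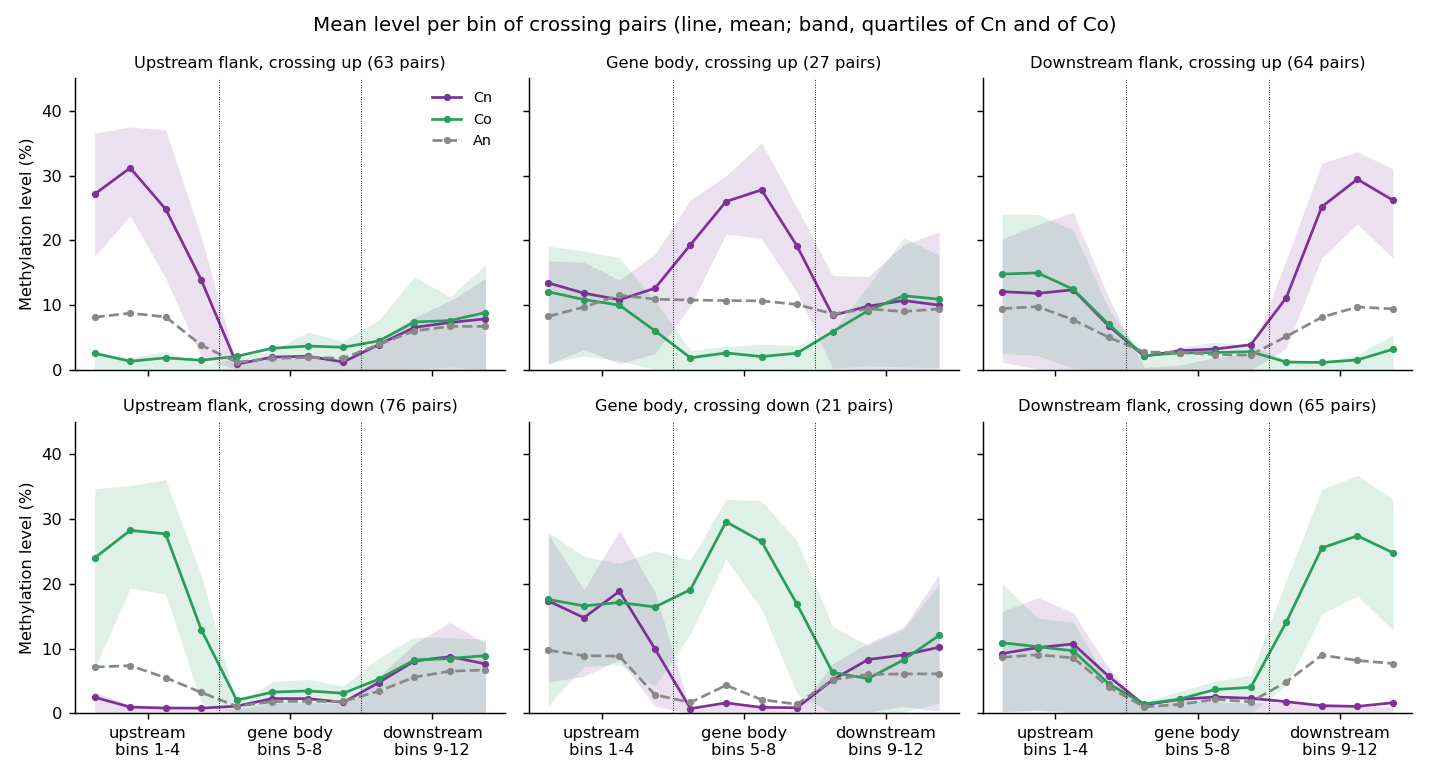
Mean methylation level (%) in the 12 bins along genes of pairs that cross up (upper row) or down (lower row) in each region, for Cn (purple), Co (green) and the An gene (grey, dashed). Bands are quartiles of Cn and of Co; Cn and Co separate in the region that was used to choose the pairs and run close together in most other bins.

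Single bins were less uniform than region means. Of 63 pairs crossing up upstream, 28 had 2 bins that met both limits on their own, 13 had 3 such bins and 9 had all 4. Levels of neighbouring bins were correlated, and the bins may overlap. The first and last bins of each region were therefore also read alone, a choice made after the data were seen. Both of them crossed in 12 pairs up and 14 down upstream, 5 up and 3 down in the gene body, and 13 up and 9 down downstream.

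The pairs described next are, for each region and direction, the 3 with the largest shift among crossing pairs with a value in all 4 bins of both genes. In the pair BnaC01G0177900ZS and BolC01g018720.2J, the 4 upstream bins were at 33.2, 31.6, 67.6 and 51.0% in Cn and at 0.217, 0.149, 0 and 0% in Co. Its gene body was low in both, with 2.27% in Cn and 4.97% in Co. The An gene had an upstream level of 0. In BnaC02G0400700ZS and BolC02g045810.2J, the upstream level was 46.5% in Cn, 2.60% in Co and 8.27% in An. In BnaC01G0236200ZS and BolC01g024740.2J, a pair with 14 exons in both annotations, all 4 upstream bins of Co were at 0 while those of Cn were at 39.0, 42.3, 43.1 and 22.4%. In each of these 3 pairs the An gene was nearer to Co than to Cn, at 3.16% in the last one.

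Downward, BnaC01G0477700ZS and BolC01g052290.2J had 0.145, 0.178, 0 and 0% in the 4 upstream bins of Cn and 36.5, 47.3, 47.3 and 54.2% in those of Co. BnaC01G0042500ZS and BolC01g004230.2J had 0, 0.155, 0.110 and 0% in Cn and 56.5, 51.6, 23.3 and 28.3% in Co. The An gene of that pair was also low, at 0.157%. BnaC02G0106800ZS and BolC02g011200.2J had an upstream level of 0.525% in Cn and 35.6% in Co, and there the An gene was at 19.4%.

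The supplementary list of predicted transcription factor binding sequences in *B. oleracea* promoters, which was shortened in the copy used, named 13 of the 139 Co genes that crossed upstream. For 4 of them it held a sequence with a CG, the dinucleotide at which plant methylation is most often found. The share of other Co genes with such a sequence was not counted, so the 4 genes show no link with crossing. These genes have 8 such sequences in the list, of which the first by position is shown for each gene as an example of promoter sequence in genes whose upstream flank crossed, with CG in capitals. They were chosen after the values were seen, the list gives no strand, and whether a sequence lies inside the upstream bins was not tested.
BolC01g002210.2J, At1g14580 (C2H2) motif, C01:1322863-1322877: cacaagaCGacaaca
BolC01g006350.2J, ERF105 (AP2EREBP) motif, C01:3623400-3623407: tggCGgct
BolC01g009050.2J, AT1G44830 (AP2EREBP) motif, C01:5221481-5221490: ttcacCGaca
BolC01g009480.2J, Unknown1 motif, C01:5489310-5489324: ggggtattttCGtcc
Positions are those of the list on the *B. oleracea* genome, whose build it does not name. Of the motif names, 3 are those of *Arabidopsis thaliana* factors of the C2H2 zinc finger and AP2/EREBP families, while Unknown1 names no factor. The first gene crossed up, with an upstream level of 18.3% in Cn (BnaC01G0023200ZS) and 0 in Co. The other 3 crossed down. The upstream flank of the gene with the ERF105 sequence was at 1.00% in Cn (BnaC01G0060000ZS) and 35.3% in Co. It was at 3.90% in Cn (BnaC01G0086300ZS) and 36.8% in Co for the gene with the AT1G44830 sequence. For the gene with the Unknown1 sequence it was at 4.45% in Cn (BnaC01G0091900ZS) and 18.4% in Co. Whether the Cn promoters hold the same sequences was not analysed here.

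Gene bodies held the largest shift of any crossing pair. BnaC02G0294100ZS and BolC02g032380.2J had 0 in all 4 gene body bins of Cn and 46.0, 53.7, 60.5 and 64.1% in Co. Their flanks were alike, at 12.5% in Cn and 15.7% in Co upstream and at 12.4% in Cn and 15.6% in Co downstream, and both genes had 2 exons. In BnaC02G0013800ZS and BolC02g001520.2J, the gene body was at 0.353% in Cn and 28.6% in Co, and in BnaC02G0545300ZS and BolC02g062430.2J at 0.143% in Cn and 26.7% in Co. In the last pair the Co level was uneven, with 0, 23.9, 39.7 and 43.3% from the start to the end of the gene, whereas Cn had 0, 0, 0 and 0.573%. The An gene was at 0.187, 0.164 and 0.0825% in these 3 pairs, near Cn.

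Upward, the single-exon pair BnaC01G0283000ZS and BolC01g030190.2J had 39.8, 37.6, 38.5 and 31.3% in the gene body bins of Cn and 0, 0, 0 and 8.66% in those of Co. BnaC01G0492300ZS and BolC01g053870.2J had 4.15, 45.8, 50.9 and 35.2% in Cn and 0, 0, 0 and 0.106% in Co. Its upstream flank crossed the other way, at 0 in Cn and 20.4% in Co. BnaC02G0297200ZS and BolC02g032630.2J had 31.8% in Cn and 2.18% in Co, with 22.3% in An. That pair had 1 exon in Cn and 3 coding exons in Co. No gene name or function is given for these identifiers in the tables used.

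Such differences in gene structure were more frequent among pairs crossing in the gene body than over all pairs. The number of exons was equal in Cn and Co in 73.3% of all 1982 pairs. It was equal in 44.4% (12 of 27) of those crossing up and in 33.3% (7 of 21) of those crossing down in the gene body. In pairs whose gene body was at 15% or more in both, it was equal in 53.3% (8 of 15). The lower share was therefore not confined to crossing pairs. Among the 1452 pairs with equal exon numbers, the gene body mean was 1.64% in Cn and 2.41% in Co, Cn was lower in 60.7%, and 12 pairs crossed up and 7 down. Read from exon rows in place of the whole gene, 14 pairs crossed up and 24 down, so that the larger count was then the downward one. Cn exon rows may include untranslated parts and Co rows are coding exons, and the part that gene models have in gene body crossing was not tested. Among pairs crossing upstream, exon numbers were equal in 68.3% of those crossing up and 68.4% of those crossing down, against 73.1% of all pairs. Downstream they were equal in 57.8% of those crossing up and 72.3% of those crossing down, against 73.2% of all pairs.

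In percentage points, the gene body shift was larger in genes with more exons, where the Co level was also higher. It was not set relative to the Co level. Pairs with 10 or more coding exons in Co had a median of 1.21% in Cn and 3.04% in Co, a median shift of −1.57 points, and Cn was lower in 82.2% of 225 pairs. Single-exon pairs had a median of 0.136% in Cn and 0.349% in Co, a median shift of −0.114 points, and Cn was lower in 53.1% of 399 pairs. Pairs with 2 to 4 and 5 to 9 exons lay between, with Cn lower in 58.1% and 68.6%. Their medians were 0.271 and 0.735% in Cn and 0.932 and 2.03% in Co. Upstream, no such order was seen, as Cn was lower in 52.8% to 54.7% of pairs of the 4 exon classes.

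Downstream crossing also reached high levels. BnaC01G0315800ZS and BolC01g033700.2J had 17.7, 69.3, 67.2 and 58.8% in the downstream bins of Cn and 0, 0, 2.33 and 5.61% in those of Co. BnaC02G0236500ZS and BolC02g025900.2J had 42.0% in Cn, 0.570% in Co and 17.9% in An. BnaC02G0286800ZS and BolC02g031660.2J crossed up in both flanks, with 36.3% in Cn and 0.273% in Co downstream and 25.9% in Cn and 0.166% in Co upstream. Downward, BnaC01G0479000ZS and BolC01g052470.2J had 1.17% in Cn and 48.6% in Co downstream, while their upstream flank was higher in Cn, at 47.6%, than in Co, at 21.6%. BnaC01G0042600ZS and BolC01g004240.2J had 0.0308% in Cn and 42.7% in Co. BnaC01G0210800ZS and BolC01g021950.2J had 0 in Cn, 38.2% in Co and 42.3% in An, so that Cn stood apart from both.

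The An gene of the row was not used to choose the pairs and gave a further value. In the gene body, An was at 15% or more in 37.0% (10 of 27) of pairs crossing up, against 1.38% (21 of 1522) of pairs below 5% in both Cn and Co. The other pairs crossing up had 4 An genes between the limits and 13 below 5%. Among pairs at 15% or more in both Cn and Co, An was at 15% or more in 6 of 15. A high An level was therefore not particular to crossing up. Over all pairs with an An level, 2.48% of An gene bodies were at 15% or more and 91.7% below 5%. In pairs crossing down in the gene body, An was below 5% in 19 of 21 (90.5%), near the share over all pairs. In the flanks the shares of crossing pairs lay closer to that over all pairs. Upstream, An was at 15% or more in 18.6% of all pairs, in 22.2% (14 of 63) of pairs crossing up and in 10.6% (73 of 691) of pairs low in both. It was so in 16.2% (12 of 74) of pairs crossing down and in 30.7% (105 of 342) of pairs at 15% or more in both. Downstream, An was at 15% or more in 14.1% of all pairs, in 16 of 64 pairs crossing up, in 6.21% of 886 low in both, 16.9% of 65 crossing down and 31.8% of 220 high in both. Cn and An share a library, an annotation and a mapping, whereas Co does not share them, and what part this has in these shares was not tested.

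**Figure D4:**
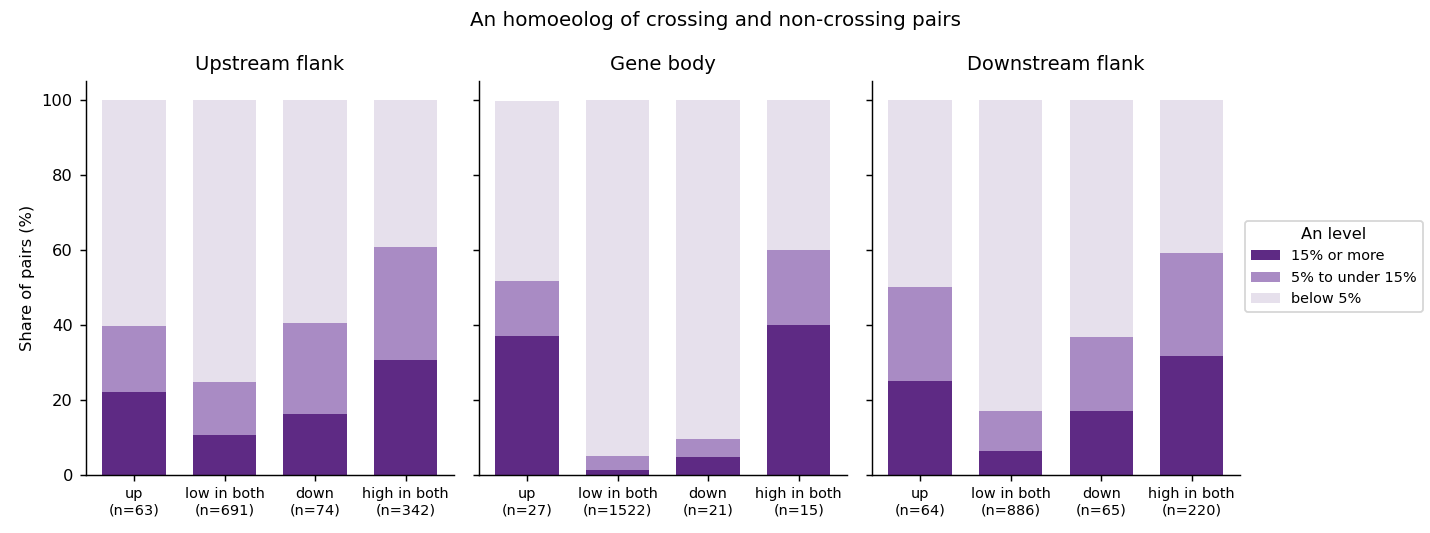
Share of pairs (%) whose An gene is at 15% or more, between 5% and 15%, or below 5%, for pairs crossing up, low in both Cn and Co, crossing down, and high in both. In the gene body 37.0% of An genes of pairs crossing up are at 15% or more, against 1.38% where both Cn and Co are low. Where both are high, 6 of 15 are.

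Most crossing pairs crossed in a single region, though crossing in another region was about as frequent among them as over all pairs or somewhat more so. In all, 294 pairs (14.7%) crossed in at least 1 region, of which 272 did so in 1 region, 22 in 2 regions and 0 in all 3. Of these 22 pairs, 5 crossed up in both regions, 5 crossed down in both and 12 crossed opposite ways. Of pairs crossing upstream, 9.42% (13 of 138) also crossed downstream, either way, against 6.53% of all pairs, and 2.94% (4 of 136) crossed in the gene body, against 2.42% of all pairs. Of pairs crossing in the gene body, 10.9% (5 of 46) also crossed downstream and 8.70% (4 of 46) upstream, against 6.53% and 7.04% of all pairs. Across the 1944 pairs with all levels, Spearman's rho between the shifts was −0.01 for upstream and gene body, 0.02 for downstream and gene body, and −0.02 for both flanks, as a description over genes. In pairs crossing up upstream, the gene body was lower in Cn in 71.0% of 62 pairs, against 62.7% of all pairs, with medians of 0.509% in Cn and 1.58% in Co. In pairs crossing down upstream, it was lower in Cn in 67.6% of 74 pairs, with medians of 0.358% in Cn and 1.23% in Co. The median gene body shift was −0.654 points in pairs crossing up upstream and −0.357 points in those crossing down, against −0.4025 points over all pairs. A lower gene body in Cn was therefore not particular to crossing pairs.

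Crossing pairs were found along the whole of C01 and C02, with some unevenness between directions. C01 was divided into 10 segments of equal gene number from its 5167 Cn genes, by order of identifier. In segment 10, 3 pairs crossed up and 14 crossed down upstream among 146, with medians of 1.37% in Cn and 3.54% in Co. In segment 4, 12 crossed up and 3 down among 159, with medians of 7.73% in Cn and 4.90% in Co. Over all C01 pairs, 3.22% crossed up and 3.80% down upstream, and on C02 3.01% and 3.84%. The segments were compared with no test, and the 2 named here were chosen after their values were seen.

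**Figure D5:**
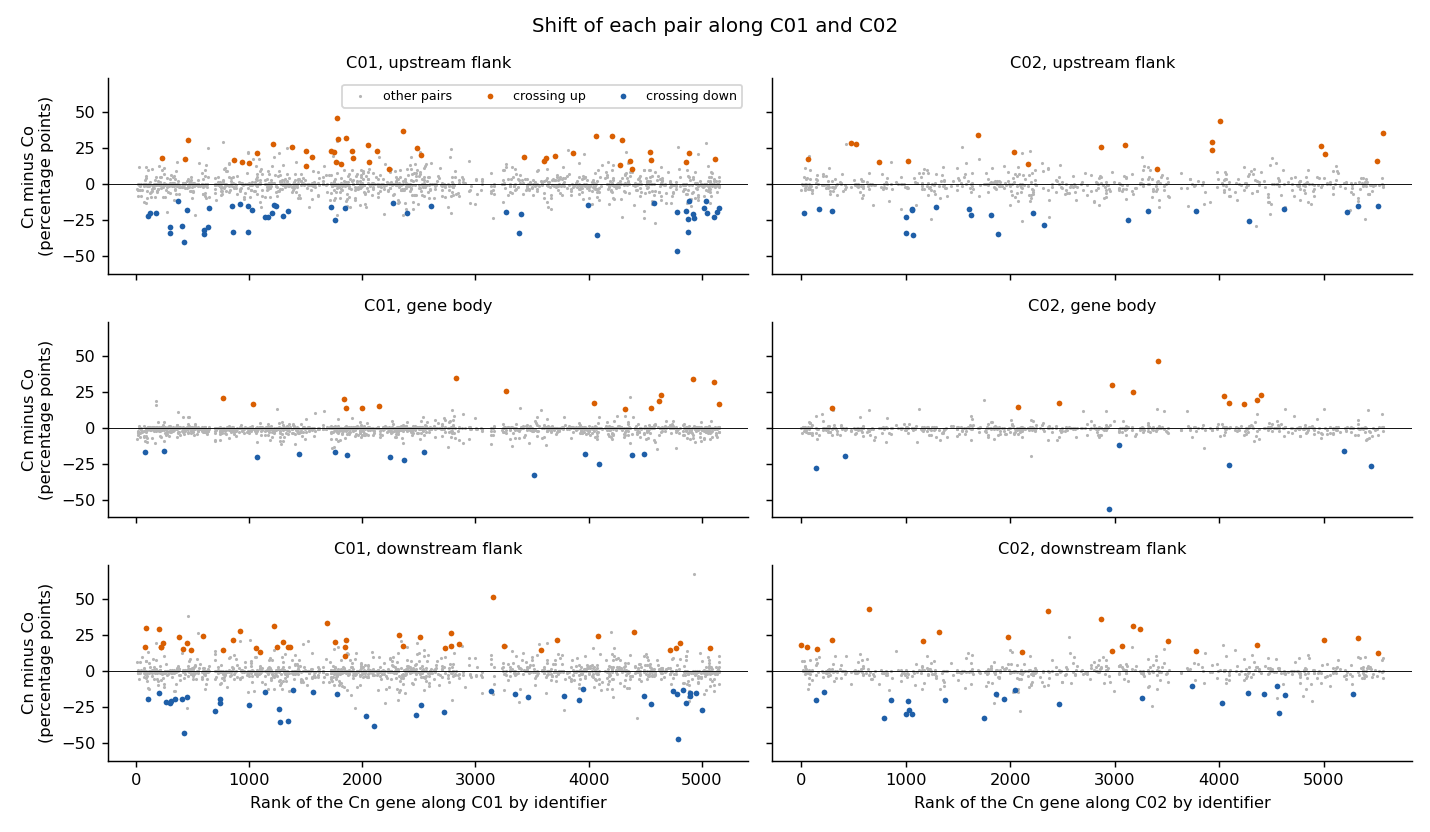
Shift of each pair (Cn minus Co, percentage points) against the rank of its Cn gene along C01 (left) and C02 (right), ordered by identifier, for the upstream flank, gene body and downstream flank. Orange points cross up and blue points cross down; both occur along each chromosome, and 14 of 146 upstream pairs in segment 10 of C01 cross down.

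Some neighbouring genes crossed together, more of them down than up. A pair was given a neighbour where the next or previous Cn gene by identifier was also in the list. Of 72 pairs crossing down in any region that had a neighbour, 19 (26.4%) had one that crossed down too, against 64 of 857 (7.47%) of the other pairs. For crossing up it was 8 of 65 (12.3%) against 66 of 864 (7.64%). Among 466 couples of pairs adjacent in both annotations, 9 crossed down together and 3 crossed up together. The couples are not all separate, as BolC01g003050.2J crossed down in a couple with BolC01g003040.2J and in another with BolC01g003060.2J. Flanks of adjacent genes can cover the same stretch of DNA, and in 1 of the 9 and 2 of the 3 couples the crossing flanks faced each other, while in 2 of the 9 the strand was not known. How much of the joint crossing comes from shared DNA was not tested. An example was the couple already named, BolC01g004230.2J and BolC01g004240.2J, in which the upstream flank of the first gene had 0.0662% in Cn and 39.9% in Co and the downstream flank of the second 0.0308% in Cn and 42.7% in Co. Another was BolC01g052290.2J with BolC01g052300.2J, a couple in which the strand was not known. The second gene was at 1.40% in Cn and 20.7% in Co upstream and at 0.148% in Cn and 16.4% in Co downstream.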

How the data were processed

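BS-seq data of young leaves were used for *B. napus* ZS11 and *B. oleracea* JZS, with 1 library each, grouped by the sample labels. A *B. rapa* library was not used. By the paper's methods, the authors extracted genomic DNA, treated it with bisulfite, filtered the reads with Fastp and mapped them with BatMeth2. The labels' protocol instead describes formaldehyde fixation for *B. oleracea* and RNA extraction for *B. napus*. The authors deposited the methylated fraction of cytosines for 12 bins per gene, with no coverage, cytosine context, conversion rate or normalization between libraries stated. Depth is therefore unknown, and no interval for single levels was possible. The genome named for mapping is that of ZS11, while the Co rows carry *B. oleracea* identifiers. How this affects Co levels was not tested.

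Pairs came from a supplementary list of homoeologous genes, of which the copy used held the first 1998 rows. Fractions were converted to percent. Region levels, shifts and crossings were computed as described above in Python 3.11.15 (scipy 1.17.1, pandas 2.3.3, numpy 2.4.6) and plotted by matplotlib 3.10.9. Counting was tested on simulated pairs. Exon numbers came from coding exon rows (Co) and exon rows (Cn). In both libraries, the levels of adjacent bins were correlated over genes (rho 0.65 to 0.81), more than those of bins 3 apart (0.25 to 0.33). Where both adjacent bins were above 0, they were identical in 11 of 11745 comparisons in Co and 23 of 11025 in Cn. Adjacent bins may overlap, which was not tested.

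Genes named are, per region and direction, the 3 crossing pairs with the largest shift among pairs with all 4 bins, and any pair crossing the same way in all 3 regions, of which there were 0. Others were chosen after their values were seen. The members and lists were chosen with earlier results of these data known. Alternatives covered bins required, median, scaling, quantile matching, chromosomes, parts of regions, exon rows, split sets of bins and thresholds.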

Additional observations from a re-analysis of the deposited data

How the results depend on the processing

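No paired analysis was possible because each species has 1 library. The 99 values compared were crossing counts and the median shift above 15% in Co, and 67 of them stayed close to the main one. No median shift of that class changed sign, though 1 was 0. In lower classes some did. Between 5% and 15% in Co upstream, it was −0.218 as deposited, 0.562 with scaling to a common mean and 0.0698 with alternate bins. Up to 5% in Co upstream, it was −0.0165, 0.0146 and 0.0245 in the same order. Which direction had more crossings did change. Upstream it was 85 up and 80 down in the 2 bins nearest the gene, against 63 and 76. In the gene body it was 14 up and 24 down from exon rows, against 27 and 21. Downstream the main counts of 64 and 65 were nearly equal, and crossing up was the larger under several settings, for example 56 up and 55 down with all 4 bins required. The counts kept within 1.5 times under all requirements on bins, the median of bins, both scalings, same-chromosome pairs and the 2 bins nearest the gene or in its middle. Requiring the crossing in both sets of alternate bins left 36 up and 46 down upstream, 13 down in the gene body, and 42 up and 40 down downstream. Requiring it in the first and last bin, chosen after the data were seen, left 12 and 14 upstream, 5 and 3 in the gene body, and 13 and 9 downstream. With 20% in place of 15%, 40 and 44 pairs crossed upstream, 15 and 10 in the gene body, and 37 and 32 downstream. With 10% in place of 5%, 114 crossed up and 114 down upstream, and 114 up and 105 down downstream. The median shift above 15% in Co was −2.66 upstream and −2.47 downstream with each library scaled to a common mean (6.28% in Cn and 6.75% in Co before scaling), and −6.47 and −6.99 in the 2 bins nearest the gene. It was −2.90 upstream with class and shift from alternate bins. It was 0 upstream, −1.71 in the gene body and −0.696 downstream with the class from the first and the shift from the last bin. Above 20% in Co it was −5.56, −18.8 and −5.84. Fewer bins or a narrower class change these values by construction, and other causes were not tested. A coverage minimum could not be varied.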

Other observations

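Of the 13 pairs that crossed in both flanks, 8 did so in opposite ways. In these pairs the methylated flank lay downstream in one genome and upstream in the other, at close levels in some. BnaC01G0184500ZS and BolC01g019340.2J had 17.001% downstream in Cn and 16.6% upstream in Co, and 0% upstream in Cn and 0.315% downstream in Co. BnaC01G0045600ZS and BolC01g004670.2J had 19.5% downstream in Cn and 18.2% upstream in Co, and the remaining flanks were at 0.620% in Cn and 0.121% in Co. BnaC01G0130300ZS and BolC01g013590.2J had 22.5% downstream in Cn and 24.7% upstream in Co, with 2.91% in Cn and 2.62% in Co in the remaining flanks. Summed over both flanks, the absolute difference between Cn and Co had a median of 37.9 points in the 8 pairs as annotated and 4.38 points with the flanks of Cn exchanged. Most of this fall follows from how these pairs were chosen, since they are below 5% and at 15% or more in opposite flanks. Over all 1954 pairs with both flanks, the median was 7.25 points as annotated and 15.9 points exchanged, and the exchanged sum was the smaller one in 20.2%. It was the smaller one in 43.3% of the 240 pairs that crossed in 1 flank, where the crossing itself favours it, and in 16.5% of the 1701 pairs that crossed in neither. These comparisons were made after the values were seen. Whether the orientation of these genes differs between the annotations was not tested.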
